A study of Mus musculus with 8 samples.

Results

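Trdc, Tcrg-C1, Tcrg-C2, Tcrg-C4 and Trgv2 are 5 genes of the T cell receptor gamma and delta loci, and they were read here in sorted mouse CD8 T cells, most of which carry the other kind of receptor, alpha-beta. They were taken by symbol from the 4 expression matrices, and each of the 5 matched 1 row of the 31053 gene rows. The same matrices hold 26 rows of these loci in all, of which 15 belong to the gamma locus on chromosome 13 and 11 to the delta locus on chromosome 14. The rule that picks them uses their symbols alone, and earlier results of these data were known when it was set.

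The cells came from EomesTG mice, labelled EomesTg/Tg, whose T cells carry a transgene for the transcription factor Eomes on both alleles, and from wild-type (WT) C57BL/6 mice. The libraries were EomesTG liver, WT liver, EomesTG spleen and WT spleen, with 1 expression library and 1 receptor library for each. Each genotype was sampled as 1 pool of 3 mice, from which CD8 T cells of both organs were sorted, so its spleen and liver libraries share mice and none has a replicate. The labels give no age. The libraries are 5′ Chromium libraries, in which a transcript is counted once by its unique molecular identifier (UMI).

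After filtering, 4517 T cells of EomesTG liver, 3127 of WT liver, 5726 of EomesTG spleen and 5332 of WT spleen were analysed, 18702 in all. These hold 18940149 to 28752100 UMIs per library, with a median of 3918 to 5461 UMIs per cell and the lowest in EomesTG liver. Between 96.0% and 97.1% of the cells of each library held a UMI of Cd8a or Cd8b1, the 2 CD8 chains, and Cd4 was found in at most 0.0349% of them. A library shared 86 to 129 of its cell barcodes with at least 1 other library, and 3.90% to 6.81% of its T cells carried 2 productive beta chains. Cells were grouped without any receptor gene. Clusters 2, 9, 15 and 16 came almost wholly from EomesTG liver, so they may be that library and not a cell type of their own.

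A gamma-delta T cell joins a gamma chain and a delta chain in place of the alpha and beta chains of a conventional CD8 T cell. The gamma locus holds several small cassettes, each a variable (V) segment or a few of them with their own joining (J) segment and constant (C) gene, and a V segment usually joins the J segment of its own cassette. Many alpha-beta T cells carry rearranged gamma genes as well, and they usually transcribe them weakly. The delta locus lies inside the alpha locus, so a V to J joining of alpha removes the delta genes from that chromosome.

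Trgv2 (ENSMUSG00000076754, chr13:19336573-19337167, minus strand) is the V segment of a cassette whose constant gene is Tcrg-C2 (ENSMUSG00000076752, chr13:19304649-19307551, minus strand). Tcrg-C4 (ENSMUSG00000076757, chr13:19344558-19352756, plus strand) is the constant gene that lies downstream of the V segment Tcrg-V1. Tcrg-C1 (ENSMUSG00000076749, chr13:19214103-19217024, plus strand) is the constant gene downstream of Tcrg-V7, Tcrg-V4, Tcrg-V6 and Tcrg-V5. Trdc (ENSMUSG00000104876, chr14:54142851-54148868, plus strand) is the only constant gene of the delta chain, and the 3′ end of its span overlaps Trdv5 on the opposite strand. All positions are on GRCm38 (mm10).

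The gamma constant genes resemble each other so closely that it matters which bases a read can tell apart. The lines below show the first 120 bases of the first constant exon of 3 of them, from GENCODE vM21 on GRCm38, at chr13:19214103-19214222 on the plus strand, chr13:19307432-19307551 on the minus strand and chr13:19344558-19344677 on the plus strand. Capitals in Tcrg-C2 and Tcrg-C4 mark bases that differ from Tcrg-C1, of which there are 2 and 14.
Tcrg-C1: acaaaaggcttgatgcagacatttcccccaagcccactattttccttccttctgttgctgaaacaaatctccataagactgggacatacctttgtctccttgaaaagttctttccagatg
Tcrg-C2: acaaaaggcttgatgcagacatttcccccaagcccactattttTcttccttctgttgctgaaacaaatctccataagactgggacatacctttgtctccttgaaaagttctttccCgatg
Tcrg-C4: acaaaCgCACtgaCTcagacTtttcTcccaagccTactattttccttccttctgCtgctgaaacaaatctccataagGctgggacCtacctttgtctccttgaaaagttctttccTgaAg

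Over the whole first constant exon of 330 bases, Tcrg-C1 and Tcrg-C2 differed at 9 bases (97.3% identity), while Tcrg-C1 and Tcrg-C4 differed at 59 (82.1%). Of all windows of 50 bases in the coding sequence, 58.4% were unique to Tcrg-C1 and 77.2% to Tcrg-C2 among the genes of both loci. Every such window of Tcrg-C4 and of Trdc was unique, so reads of that length in these windows belong to 1 gene. Counts of Tcrg-C1 and Tcrg-C2 are less certain, since a read inside a shared window cannot be assigned to 1 of them.

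The V segment Trgv2 also has a close relative, Tcrg-V1, in the neighbouring cassette of Tcrg-C4. The next lines show the last 120 bases of both V exons, at chr13:19336573-19336692 on the minus strand and chr13:19340335-19340454 on the plus strand, with the start of the delta constant gene at chr14:54142851-54142970 on the plus strand. Capitals mark the codon of the conserved cysteine near the end of the V exon.
Trgv2: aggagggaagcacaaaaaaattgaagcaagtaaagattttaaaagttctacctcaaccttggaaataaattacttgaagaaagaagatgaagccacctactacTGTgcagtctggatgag
Tcrg-V1: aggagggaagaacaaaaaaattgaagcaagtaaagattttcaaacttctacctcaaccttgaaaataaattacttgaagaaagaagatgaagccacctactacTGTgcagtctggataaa
Trdc: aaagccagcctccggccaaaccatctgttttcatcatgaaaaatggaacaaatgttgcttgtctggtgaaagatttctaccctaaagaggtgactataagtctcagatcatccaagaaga
The V exons were 95.4% identical in an alignment of 307 bases, and 89.7% of the windows of Trgv2 were unique to it.

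Gamma transcripts were found in many cells of EomesTG liver and in few cells of either spleen, while the delta constant gene was rare in all 4 libraries. Trgv2 had 405 counts per 1000000 UMIs (CPM) in EomesTG liver, 57.3 in WT liver, 11.9 in EomesTG spleen and 10.7 in WT spleen. Its exact 95% Poisson intervals were 397 to 414, 53.9 to 60.8, 10.6 to 13.2 and 9.52 to 11.9 CPM in that order, so the livers stood apart from each other and from the spleens, whose intervals overlapped. These and all later intervals cover counting error only, since there is 1 library per group. A Trgv2 UMI was found in 46.9% of EomesTG liver cells, 12.7% of WT liver cells, 2.67% of EomesTG spleen cells and 2.91% of WT spleen cells. When each cell was thinned to 2000 UMIs, the shares were 40.5%, 7.84%, 1.59% and 1.95%, with the same library highest. A single cell held up to 26 Trgv2 UMIs in EomesTG liver.

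The constant genes of both neighbouring cassettes followed the same order of tissues. Tcrg-C2 had 91.3 CPM (87.3 to 95.6) in EomesTG liver, 16.1 (14.3 to 18) in WT liver, 1.84 (1.37 to 2.41) in EomesTG spleen and 2.54 (1.99 to 3.19) in WT spleen. Tcrg-C4 had 127 CPM (123 to 132) in EomesTG liver, 15.4 (13.6 to 17.2) in WT liver, 4.24 (3.52 to 5.07) in EomesTG spleen and 2.85 (2.27 to 3.54) in WT spleen. Both genes were highest in EomesTG liver, next in WT liver and lowest in the spleens, whose Tcrg-C2 intervals overlapped while their Tcrg-C4 intervals did so only at the edge. A Tcrg-C2 UMI was found in 26.8% of EomesTG liver cells, against 6.40% of WT liver, 0.803% of EomesTG spleen and 1.11% of WT spleen cells. For Tcrg-C4 the shares were 31.0%, 6.52%, 1.5% and 1.18% in those libraries.

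Tcrg-C1, the constant gene of the cassette of Tcrg-V4 to Tcrg-V7, was higher in both livers than in both spleens, and lower in the EomesTG than in the WT library of each organ, with intervals apart in liver and overlapping in spleen. It had 7.41 CPM (6.27 to 8.68) in EomesTG liver, 10.5 (9.10 to 12.1) in WT liver, 0.813 (0.516 to 1.22) in EomesTG spleen and 1.46 (1.05 to 1.97) in WT spleen, and was found in 2.32%, 4.38%, 0.349% and 0.638% of the cells. Trdc had 2.78 CPM (2.10 to 3.60) in EomesTG liver, 3.43 (2.65 to 4.37) in WT liver, 4.95 (4.16 to 5.84) in EomesTG spleen and 3.62 (2.96 to 4.38) in WT spleen. It was found in 0.598%, 1.02%, 1.48% and 1.18% of the cells, and its intervals overlapped except between EomesTG liver and EomesTG spleen. In the 30 cells left out because they were not T cells, Tcrg-C2 had 2 UMIs in 1 cell and the other members had none.

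**Figure D1:**
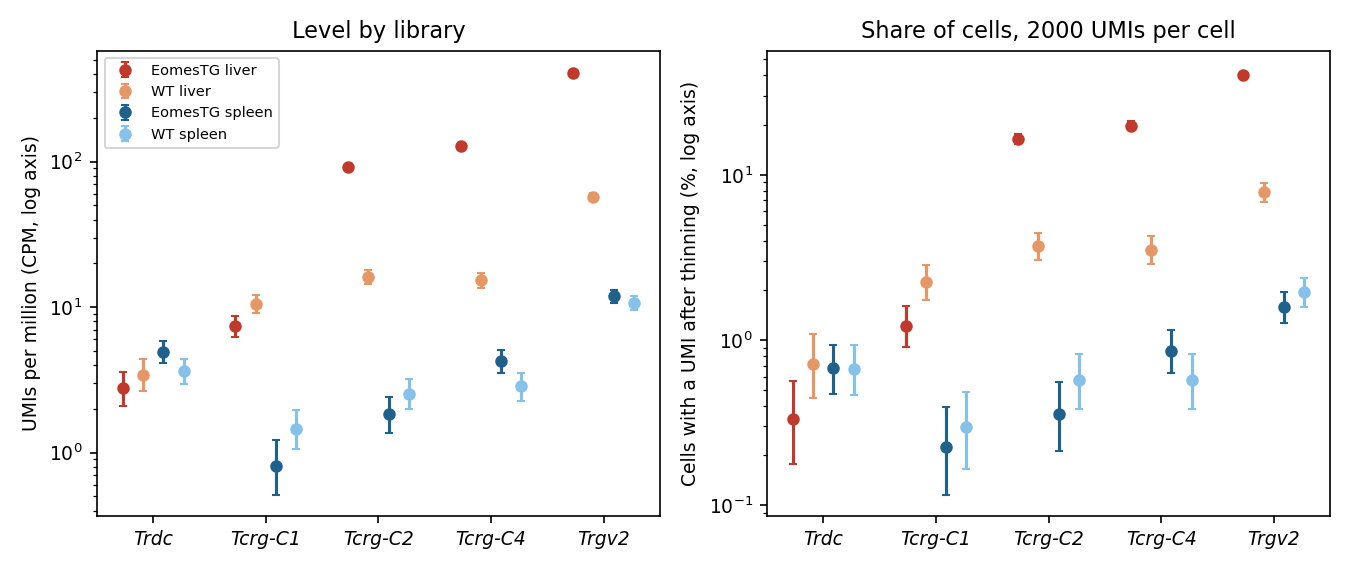
Left, CPM of each member by library on a log axis with exact Poisson 95% intervals; right, the share of cells with a UMI after thinning to 2000 UMIs, with exact binomial 95% intervals, also on a log axis. Trgv2, Tcrg-C2 and Tcrg-C4 stand highest in EomesTG liver, at 405, 91.3 and 127 CPM, Tcrg-C1 is higher in both livers than in both spleens, and Trdc stays between 2.78 and 4.95 CPM.

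Set against WT liver, EomesTG liver had 7.08-fold more Trgv2 (log2 ratio 2.82, 95% interval 2.73 to 2.92), 5.67-fold more Tcrg-C2 (2.50, 2.33 to 2.68) and 8.30-fold more Tcrg-C4 (3.05, 2.88 to 3.23). The intervals are exact conditional binomial intervals for the ratio of 2 libraries. A gene with at least 50 UMIs over both sides was called when it differed by 1.5-fold or more with its interval on that side of equality. By this rule 3 of the 5 members were called higher, where 13.7% of the 10800 genes tested were called higher, 6.7% were called lower and the median log2 ratio of all of them was 0.12. Tcrg-C1 (log2 ratio -0.50, -0.82 to -0.19) and Trdc (-0.31, -0.84 to 0.23) were not called. With median-of-ratios size factors, Tcrg-C1 was called lower, at -0.62, and with the mean over cells of counts per 10000 UMIs both were called lower, Tcrg-C1 at -0.81 and Trdc at -0.95. In these sums, fewer cells that hold a transcript and less of it per cell cannot be told apart.

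Most of the pooled difference between the livers was gone without clusters 2, 9, 15 and 16. Without them, Trgv2 had 67.3 CPM in the rest of EomesTG liver and 57.3 in WT liver (log2 ratio 0.23, 0.08 to 0.39). Tcrg-C2 had 16.8 and 16.2 CPM, and Tcrg-C4 had 18.9 and 15.3 CPM. None of the 5 members was then called higher, where 2.26% of 10146 genes were. Tcrg-C1 was called lower at 6.29 CPM in EomesTG liver and 10.5 in WT liver (-0.74, -1.23 to -0.28), where 3.72% of genes were. These pools mix classes in unlike shares. Cluster 11, named innate-like below, held 376 WT liver cells, with 627 of the 1085 Trgv2 and 133 of the 199 Tcrg-C1 UMIs of that library. In EomesTG liver it held 88 cells, with 99 Trgv2 and 15 Tcrg-C1 UMIs. Ratios without that cluster were not computed. Within several single classes EomesTG cells had more Trgv2, and in cluster 4 less, as given below. When only cells with a productive alpha and beta chain were kept, Trgv2 had 420 CPM in EomesTG liver and 57.9 in WT liver (2.86), so the difference was as large among cells whose alpha-beta receptor was read. Trgv2, Tcrg-C2 and Tcrg-C4 were all called higher in that setting, in which 14% of genes were.

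Over all cells of the spleen, 1 member differed by the call rule between the genotypes. Tcrg-C1 was called lower (log2 ratio -0.84, -1.65 to -0.08), from 23 UMIs in EomesTG spleen and 42 in WT spleen, where 4.93% of 10774 genes were called lower and 2.68% higher. Trgv2 (0.15, -0.07 to 0.38), Tcrg-C4 (0.57, 0.16 to 1.0), Tcrg-C2 (-0.47, -1.01 to 0.07) and Trdc (0.45, 0.08 to 0.83) were not called. The call of Tcrg-C1 was lost without barcodes holding 2 productive beta chains (-0.76, -1.58 to 0.04) and without the 1 cell with most of its UMIs (-0.74, -1.55 to 0.04). In paired cells Trdc was called higher (0.62, 0.09 to 1.15), where 2.74% of genes were, but not without the cell with the most Trdc UMIs (0.50, -0.03 to 1.04). Within spleen cluster 7, Trgv2 was called higher at 48.4 CPM in EomesTG and 16.1 CPM in WT cells (1.59, 0.92 to 2.29), 1 of 1 member with enough UMIs, where 3% of genes were. At these UMI counts all cells of the spleens give no member a difference that held under all settings.

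Liver stood above spleen for all 4 gamma members in both genotypes. In EomesTG mice, liver over spleen was 34.1-fold for Trgv2 (log2 ratio 5.09, 4.94 to 5.25), 49.7-fold for Tcrg-C2 (5.63, 5.24 to 6.06), a log2 ratio of 4.91 for Tcrg-C4 and one of 3.19 for Tcrg-C1 (2.55 to 3.89). In WT mice the log2 ratios were 2.42 for Trgv2, 2.67 for Tcrg-C2, 2.43 for Tcrg-C4 and 2.85 for Tcrg-C1. All 8 values were called, where 23.6% of genes in EomesTG mice and 11.4% in WT mice were called higher in liver. Trdc was called lower in EomesTG liver than in EomesTG spleen (-0.83, -1.30 to -0.38), where 9.69% of genes were, and stood at -0.08 (-0.55 to 0.38) in WT mice. Without clusters 2, 9, 15 and 16 the Trdc ratio in EomesTG mice was 0.04, and with each clone counted once it was -0.01, so the lower level went with those large clusters and clones.

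Among phenotype classes of at least 50 cells, the highest levels of Trgv2 were in exhausted-like cells of EomesTG liver and in innate-like cells of both livers. The classes were named from marker lists, such as Pdcd1, Lag3 and Tox for exhausted-like cells and Fcer1g and Tyrobp, which encode signalling adaptors of natural killer (NK) cells, for innate-like cells. Exhausted-like cells made up 65.9% of EomesTG liver (2977 cells), and Trgv2 had 627 CPM in them (613 to 642). A Trgv2 UMI was found in 62.3% of these cells, a Tcrg-C2 UMI in 36.0% and a Tcrg-C4 UMI in 40.5%. WT liver held only 24 cells of this class, with 66.2 CPM of Trgv2. The class in EomesTG liver was made of clusters 2, 9 and 16, of which cluster 2 had 570 CPM of Trgv2, cluster 9 had 892 and cluster 16 had 688. Cluster 15, which is cycling-like, had 445 CPM.

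Innate-like cells carried the gamma genes without the transgene. They were 12% of WT liver (376 cells), in which Trgv2 had 402 CPM (371 to 435) and was found in 58.0% of cells. In EomesTG liver the 88 innate-like cells had 376 CPM of Trgv2, found in 40.9% of cells, and the ratio between the livers within this class was -0.10 on the log2 scale (-0.42 to 0.21). Of 4 members with enough UMIs there, none was called in either direction, where 3.63% of genes were called higher and 2.24% lower. Among classes of at least 50 cells, Tcrg-C1 had its highest levels here, with 56.9 CPM in EomesTG liver and 85.3 in WT liver, where it was found in 24.5% of cells. Tcrg-C2 had 159 and 130 CPM and Tcrg-C4 had 129 and 115 CPM in EomesTG and WT innate-like liver cells.

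Other liver classes stood in between, and within several of them EomesTG cells had more Trgv2. Resident-like cells had 220 CPM in EomesTG liver and 81.6 in WT liver, which is a log2 ratio of 1.43 within that cluster. Tcrg-C2 (1.32) and Tcrg-C4 (1.19) were called there too, so 3 of the 3 members with enough UMIs rose, where 2.53% of genes were called higher. Effector-like cells had 89.5 CPM of Trgv2 in EomesTG liver and 13.4 in WT liver (2.73), where 2.80% of genes were called higher. In cycling-like cluster 12 the values were 106 and 42.6 CPM (1.32), where 3.35% were. Cluster 4, led by the immediate-early genes Fos, Klf4, Atf3 and Jun, went the other way with 7.37 CPM in EomesTG liver and 15.9 in WT liver (-1.11), where 3% of genes were called lower.

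Naive-like cells had little of any gamma member, and their share with a UMI stands beside those of the other classes as a background. How much of it is free RNA was not measured. A Trgv2 UMI was found in 2.70% of naive-like cells of EomesTG liver, 0.629% of WT liver, 1.01% of EomesTG spleen and 0.140% of WT spleen. The median depth of naive-like cells was 5776 UMIs in EomesTG liver, against 3500 in its exhausted-like cells, so the low share did not go with low depth. The 30 cells that were not T cells held no Trgv2 UMI, which at 3 counts allows a share of cells with a UMI of up to 10.0%.

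Set against naive-like cells of the same library, the other T cells had more Trgv2 in every library. They had 427 CPM in EomesTG liver, against 9.56 in its naive-like cells (log2 ratio 5.48), and 60.4 CPM in WT liver, against 1.01 from 1 UMI (5.90, 3.42 to 11.2). In the spleens the other T cells had 28.8 CPM in EomesTG mice, against 3.77 in naive-like cells (2.93), and 20.2 CPM in WT mice, against 0.503 (5.33). Tcrg-C2 and Tcrg-C4 were called higher in the other T cells of all 4 libraries as well, Tcrg-C4 of WT liver with 291 UMIs against 0, which is at least 5.34-fold higher at a floor of 3 counts in the naive-like cells. Of the members with enough UMIs, 4 of 5, 4 of 5, 3 of 4 and 4 of 4 were called higher in EomesTG liver, WT liver, EomesTG spleen and WT spleen, where 28.1%, 11%, 7.16% and 8.54% of genes were. When naive cells were instead chosen by their UMIs of marker genes, which left 20 to 246 cells a library, 6 calls of Trgv2, Tcrg-C2 and Tcrg-C4 were made in place of 12.

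Trdc did not follow this division. It was called lower in the other T cells of EomesTG liver, with 2.36 CPM against 10.5 in naive-like cells (log2 ratio -2.16, -3.13 to -1.06), where 5.86% of genes were called lower. The naive-like level came from 11 UMIs in 3 cells, 8 of them in 1 cell, and without that cell the ratio was -0.29 (-1.93 to 2.04). It was called higher in those of WT spleen, with 4.45 against 2.73 CPM (0.70, 0.11 to 1.32), and this call too was lost without the cell with the most Trdc UMIs (0.59, -0.02 to 1.22). Both directions turned round with the way naive cells were chosen. At a coarser clustering the ratio in EomesTG liver was 0.14, and with naive cells chosen by UMIs that in WT spleen was -0.81.

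Pooled naive-like spleen cells had more Trgv2 and Trdc in EomesTG mice. The class sits in different clusters in the genotypes, with 2769 EomesTG and 278 WT cells in cluster 0, 1020 and 1996 in cluster 1, and 287 and 586 in cluster 5. Trgv2 had 3.77 CPM in EomesTG and 0.503 CPM in WT naive-like spleen cells (log2 ratio 2.91, 1.79 to 4.27), and Trdc had 4.66 and 2.73 CPM (0.77, 0.21 to 1.36). Both of the 2 members with enough UMIs were called higher, where 3.02% of genes were. The EomesTG level of Trgv2 came from 41 of 4076 cells. Within the clusters, Trgv2 had 40 UMIs in EomesTG and 0 in WT cells of cluster 0, 8 and 1 in cluster 1, and 24 and 6 in cluster 5, too few to call in any. Trdc was called in cluster 0 (67 and 1 UMIs) and stood at a ratio of 0.58 (-0.36 to 1.48) in cluster 1 and 0.03 (-2.12 to 1.87) in cluster 5. In cluster 3 of the spleen, led by Cd163l1, Gzmm and Klra6, Trdc was called higher at 10.5 CPM in EomesTG cells and 5.0 in WT cells (1.06), 1 of 4 members, where 2.23% of genes were called higher.

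**Figure D2:**
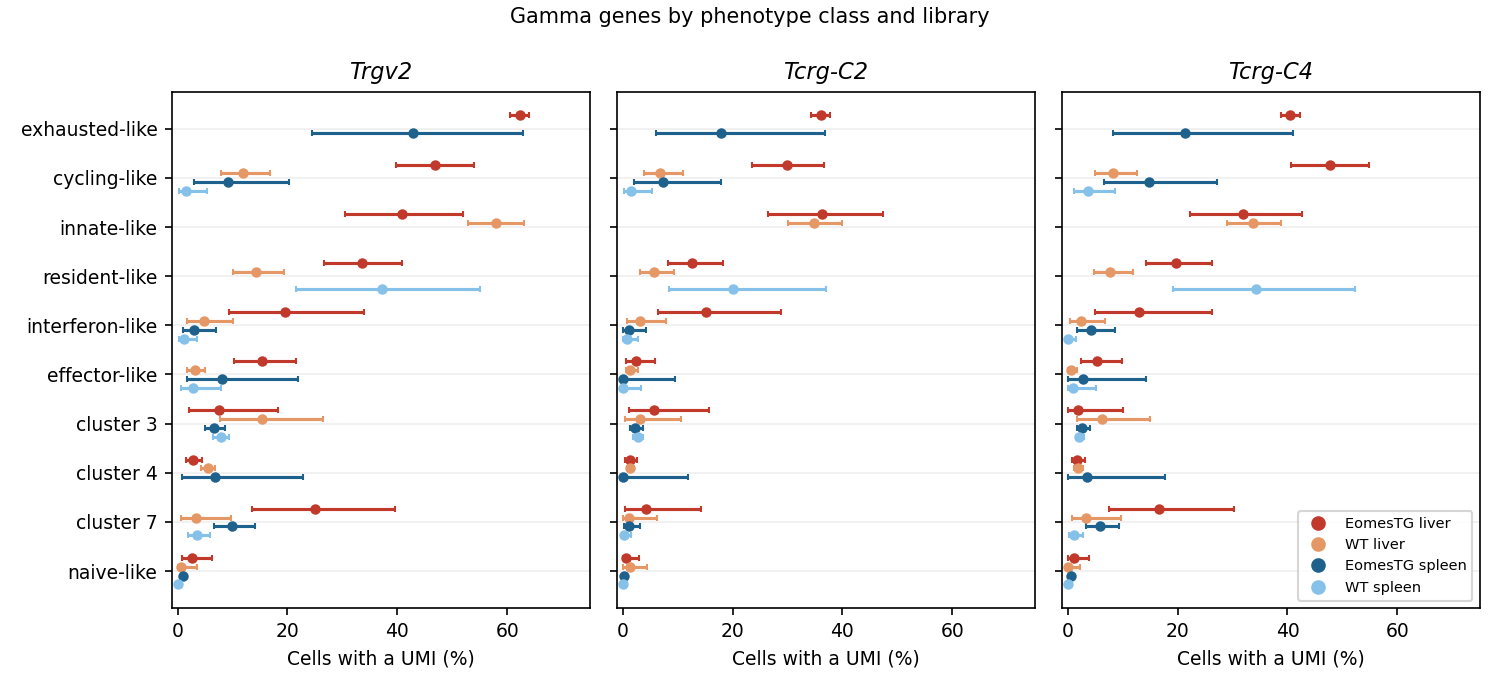
Share of cells with a UMI of Trgv2, Tcrg-C2 and Tcrg-C4 in each phenotype class, one point per library with exact binomial 95% intervals, drawn for classes with at least 25 cells. Exhausted-like cells of EomesTG liver reach 62.3% for Trgv2 and innate-like cells of WT liver 58.0%, while naive-like cells lie at or below 2.70%.

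The receptor libraries, which report alpha (TRA) and beta (TRB) chains, show whether a cell with gamma transcripts also had an alpha-beta receptor. Cells without a productive TRA and TRB pair numbered 1264 in EomesTG liver, 746 in WT liver, 1569 in EomesTG spleen and 1352 in WT spleen, or 28.0%, 23.9%, 27.4% and 25.4% of the T cells. Trgv2 did not differ by the call rule between cells without and with a pair in any library. It had 356 and 420 CPM in unpaired and paired cells of EomesTG liver, 54.4 and 57.9 in WT liver, 11.8 and 11.9 in EomesTG spleen, and 13.3 and 10.0 in WT spleen. The log2 ratios were -0.24, -0.09, -0.01 and 0.42 in those libraries.

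Trdc was called higher in unpaired cells of all 4 libraries, in EomesTG liver through a single cell. Unpaired and paired cells had 5.80 and 1.89 CPM in EomesTG liver (log2 ratio 1.62, 0.81 to 2.42), and 11.2 and 1.79 CPM in WT liver (2.64, 1.89 to 3.40). They had 9.56 and 3.55 CPM in EomesTG spleen (1.43, 0.93 to 1.93), and 8.73 and 2.31 CPM in WT spleen (1.92, 1.33 to 2.50). All 4 ratios were called. In EomesTG liver, however, 15 of the 27 Trdc UMIs of unpaired cells lay in 1 cell. Without it the ratio was 0.45 (-0.65 to 1.46), and without clusters 2, 9, 15 and 16 it was 0.41 (-0.71 to 1.44). The other 3 libraries kept their call without the cell with the most Trdc UMIs. In cells with no chain at all, Trdc had 9.57 CPM in EomesTG liver, 14.9 in WT liver, 20.4 in EomesTG spleen and 24.1 in WT spleen. Those cells were shallow, with a median of 1996, 2557, 2884 and 2967 UMIs in that order against 4125, 5847, 4948 and 5266 in paired cells, and the part of depth in the missing chains was not tested.

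The gamma constant genes followed the pair less evenly. Tcrg-C1 was called higher in unpaired cells of both livers, with 14 and 5.48 CPM in unpaired and paired cells of EomesTG liver (log2 ratio 1.35) and 21.5 and 8.19 in WT liver (1.39). Tcrg-C2 was called in WT liver, with 29.0 and 13.4 CPM (1.12), and from few UMIs in EomesTG spleen, with 2.88 and 1.52 CPM (0.92, 0.03 to 1.78), a call lost without 1 cell (0.67). Tcrg-C4 was called only in WT liver, with 26.0 and 13.1 CPM (0.99). Of the members with enough UMIs, 2 of 5, 4 of 5, 2 of 4 and 1 of 4 were called higher in EomesTG liver, WT liver, EomesTG spleen and WT spleen, where 3.04%, 4.05%, 0.556% and 0.941% of genes were. In unpaired cells of WT liver the summed markers of hepatocytes also stood higher, at 32.0 against 5.05 CPM in paired cells, as did those of NK cells (418 and 259 CPM), gamma-delta T cells (46.8 and 32.6 CPM) and myeloid cells (28.1 and 18 CPM). Their part in the result was not tested. Innate-like cells of WT liver, which held the most Tcrg-C1, were paired in 56.4% of cases, against 78.8% of the other T cells. Without them the WT liver ratios were 1.17 for Tcrg-C1, 1.04 for Tcrg-C2 and 0.80 for Tcrg-C4, all called. Within them they were 0.43, 0.09 and 0.04, none called. The share of all genes called was not computed for either subset, so how usual such calls are there is not known. Within innate-like cells Trgv2 was lower in the unpaired cells, at 217 against 488 CPM (-1.17, -1.48 to -0.87).

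**Figure D3:**
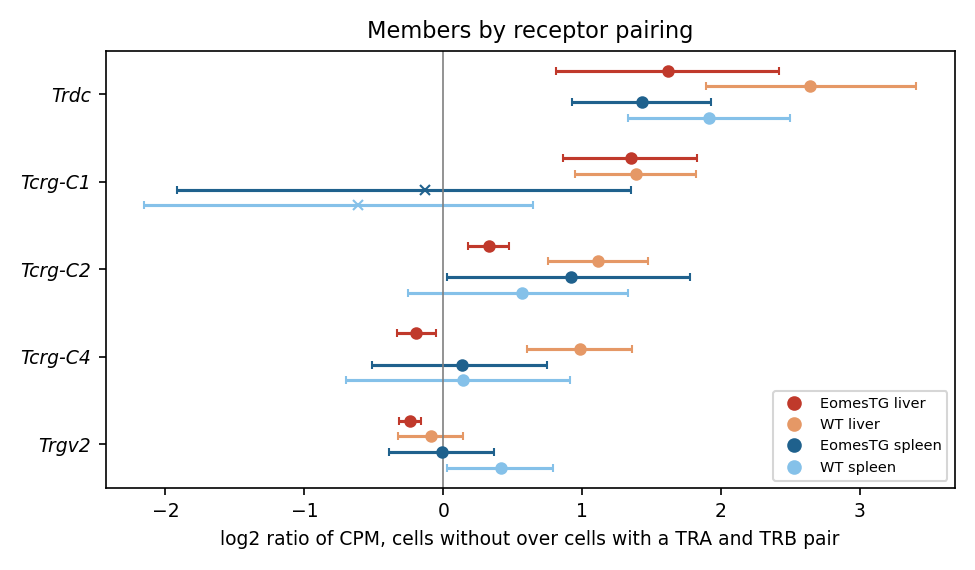
The log2 ratio of CPM in cells without over cells with a productive TRA and TRB pair, for each member and library, with exact 95% intervals; crosses mark members with fewer than 50 UMIs. Trdc lies to the right of 0 in all 4 libraries, from 1.43 to 2.64, with 15 of 27 unpaired UMIs of EomesTG liver in 1 cell, while Trgv2 lies between -0.24 and 0.42.

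Cells with a Trdc UMI and no pair were few. There were 10 in EomesTG liver, 15 in WT liver, 30 in EomesTG spleen and 29 in WT spleen, or 0.221%, 0.480%, 0.524% and 0.544% of the T cells and 84 in all. Of these, 44 held at least 2 Trdc UMIs and 37 had no contig of any chain. A further 17, 17, 55 and 34 cells of those libraries held a Trdc UMI together with a full alpha-beta pair. Among the cells without a contig, a UMI of a gamma constant gene was found in 3 of 4 cells in EomesTG liver, 3 of 5 in WT liver, 3 of 14 in EomesTG spleen and 7 of 14 in WT spleen.

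The cells with Trdc and no pair are too few for a close comparison between the libraries. A list of 20 genes of the gamma-delta T cell program, such as the transcription factors Sox13 and Maf, had 0 UMIs in those of EomesTG liver, 10 in WT liver, 3 in EomesTG spleen and 32 in WT spleen. As levels these are 0 CPM in EomesTG liver (an interval up to 69.3), 133 in WT liver (63.6 to 244), 19.8 in EomesTG spleen (4.08 to 57.8) and 237 in WT spleen (162 to 335), against 29.8, 65.8, 23.2 and 45.8 CPM in the paired cells of the same libraries. The intervals of the 2 livers overlapped and those of the spleens did not. The adaptor gene Tyrobp had 469 CPM in those of EomesTG liver, 398 in WT liver, 6.60 in EomesTG spleen and 163 in WT spleen. In paired cells it had 46.5, 91.0, 1.75 and 3.40 CPM. The 6.60 CPM lies below the 19.8 CPM that 3 UMIs made in those cells of EomesTG spleen, so it rests on very few UMIs. Trac, the constant gene of the alpha chain, was still read at 263, 199, 185 and 163 CPM, against 476, 274, 233 and 262 CPM in paired cells. Of the 17 such cells of EomesTG spleen with at least 2 Trdc UMIs, 9 were naive-like and 7 belonged to cluster 3.

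The contig tables held no gamma chain in any library. Contigs that use a delta V segment numbered 57 in EomesTG liver, 37 in WT liver, 114 in EomesTG spleen and 44 in WT spleen, and none was productive. Of these, 53, 30, 107 and 44 were joined to an alpha J segment, and 1 contig of a delta chain was listed in WT liver. Receptor libraries of this kind are usually enriched for alpha and beta chains, so an absent gamma contig says nothing about a cell.

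Larger clones had more of the gamma genes in both organs of EomesTG mice, while in WT liver the relation rested on 1 lineage. A clone was the set of cells of 1 library with the same productive TRA and TRB nucleotide sequences of the third complementarity-determining region (CDR3), the most variable stretch of a receptor chain. In EomesTG liver Trgv2 had 75.6 CPM in clones of 1 cell, 440 in clones of 2 to 4, 711 in clones of 5 to 19 and 590 in clones of 20 or more cells. The share of cells with a UMI was 14.4%, 45.9%, 61.1% and 64.7% in those bins. The level thus rose up to clones of 5 to 19 cells (669 to 756 CPM) and was lower in the largest (574 to 607 CPM). The largest EomesTG lineage, lineage 1 of those defined below, had 492 liver cells and only 14 CPM of Trgv2. The level of the largest clones without it was not computed. Over the same bins, 10.8%, 58.6%, 84.8% and 98.7% of the cells lay in clusters 2, 9, 15 and 16, so clone size and those clusters moved together.

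Expanded clones, of 2 or more cells, had 592 CPM of Trgv2 in EomesTG liver, against 75.6 in clones of 1 cell (log2 ratio 2.97, 2.82 to 3.12). Without clusters 2, 9, 15 and 16 the log2 ratio was 1.53 (1.20 to 1.85), still past the threshold. Tcrg-C2 (120 and 19.3 CPM, 2.63) and Tcrg-C4 (185 and 22.5 CPM, 3.04) were called as well, so 3 of 4 members with enough UMIs rose, where 28.7% of genes were called higher. In EomesTG spleen expanded clones had 171 CPM of Trgv2, against 8.83 (4.27, 3.86 to 4.68), and 56.1 CPM of Tcrg-C4, against 3.15 (4.16), 2 of 3 members, where 11% of genes were called higher.

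In WT mice the relation differed between the organs. Expanded clones of WT liver had 115 CPM of Trgv2, against 46.3 in clones of 1 cell (log2 ratio 1.31, 1.11 to 1.51), and 19 CPM of Tcrg-C4, against 11.9 (0.67, 0.18 to 1.14), where 18.8% of genes were called higher. Of the 303 Trgv2 UMIs of these expanded clones, most lay in WT lineage 2, an innate-like lineage of 48 cells. Without it, Trgv2 had 38.8 CPM in expanded and 46.2 in single-cell clones (-0.25, -0.58 to 0.06), and Tcrg-C4 had 7.92 and 11.8 CPM (-0.57, -1.35 to 0.12), so neither was called and both turned round. Without innate-like cells the ratios were -0.19 and -0.17. With each clone counted once they were 0.53 (-0.05 to 1.06) for Trgv2 and 0.43 (-0.89 to 1.5) for Tcrg-C4, and without the largest lineage, WT lineage 1, Trgv2 had 1.93. In EomesTG mice the Trgv2 ratio without the lineage that held most of it was 2.76 in liver and 3.25 in spleen, still called. In WT spleen expanded clones held 1 Trgv2 UMI, or 1.69 CPM, against 228 UMIs or 10.2 CPM in clones of 1 cell (-2.59, -7.90 to -0.10), where 3.07% of genes were called lower. That call was lost without the largest lineage, at -1.88 (-7.19 to 0.61), and with clones defined by the beta chain alone, at -0.13.

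**Figure D4:**
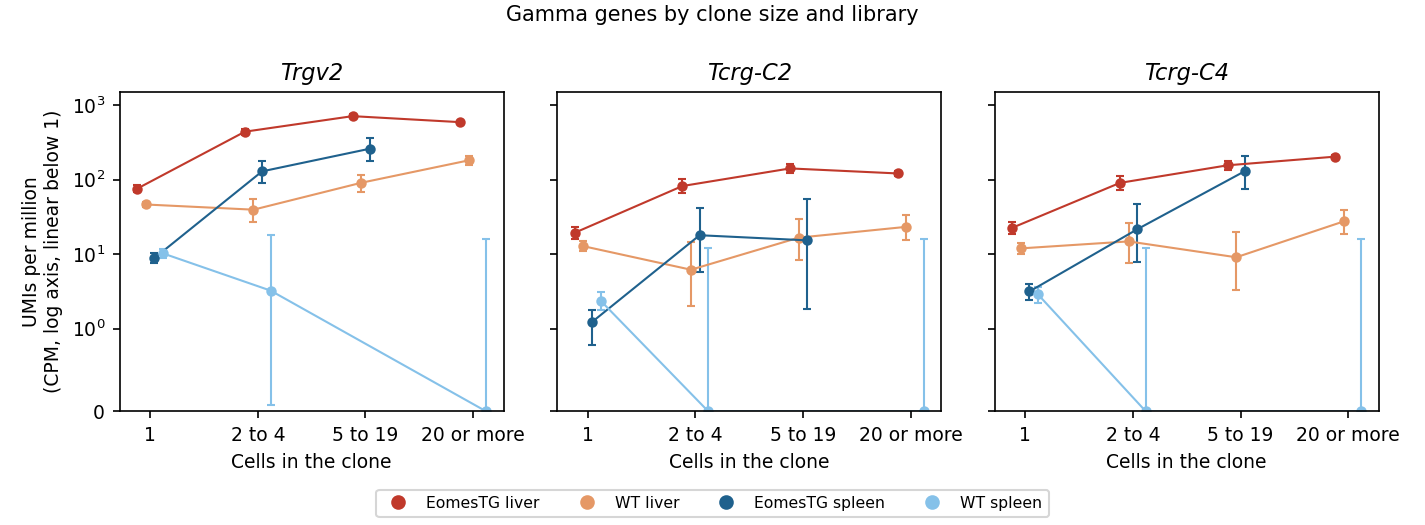
CPM of Trgv2, Tcrg-C2 and Tcrg-C4 by the number of cells in the clone, one line per library with exact Poisson 95% intervals; the axis is logarithmic above 1 and linear below, and bins of fewer than 25 cells are not drawn. Trgv2 in EomesTG liver has 75.6 CPM in clones of 1 cell and 590 CPM in clones of 20 or more, and in WT spleen it has 10.2 CPM in clones of 1 cell and 0 in the largest clones.

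Cells that descend from 1 T cell share their rearranged gamma genes, so the lineages show which gamma genes go together. Paired cells of 1 genotype that shared both a TRA and a TRB CDR3 were joined into lineages across liver and spleen, and 32 EomesTG lineages (2102 cells) and 8 WT lineages (297 cells) held at least 10 cells. Among the EomesTG lineages a Trgv2 UMI was found in at least 50% of the cells of 23, in under 10% of 7 and in between in 2. Among the WT lineages the counts were 2, 5 and 1. By these cuts few lineages lay in between, but the shares of the 23 EomesTG lineages ran from 56.5% to 100%. The pooled share of 46.9% in EomesTG liver does not show this spread.

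The largest EomesTG lineages show a low and a high share within 1 phenotype. Lineage 1 (492 cells) had Trgv2 in 6.5% of its cells and at 14 CPM, while lineage 2 (448 cells) had it in 92.9% and at 933 CPM. Their median depths were 3902 and 3769.5 UMIs, and 99% and 99.3% of their cells lay in clusters 2, 9, 15 and 16. Tcrg-C4 was found in 45.1% and 47.8% of the cells of lineages 1 and 2, so the lineage with little Trgv2 still had gamma transcripts. The largest WT lineage (153 cells, mostly effector-like) had Trgv2 in 0.654% of its cells and Tcrg-C4 in 0.654%. The lines below give the CDR3 sequences that define these lineages and one in which another V segment was found in every cell, as read from the deposited contigs, from the conserved cysteine codon onwards.
EomesTG lineage 1 TRA: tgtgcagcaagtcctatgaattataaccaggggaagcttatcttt
EomesTG lineage 1 TRB: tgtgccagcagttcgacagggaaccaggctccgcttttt
EomesTG lineage 2 TRA: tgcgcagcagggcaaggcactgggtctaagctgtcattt
EomesTG lineage 2 TRB: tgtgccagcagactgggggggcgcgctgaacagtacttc
EomesTG lineage 27 TRA: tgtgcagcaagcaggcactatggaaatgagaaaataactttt
EomesTG lineage 27 TRB: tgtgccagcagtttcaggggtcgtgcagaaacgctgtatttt
WT lineage 1 TRA: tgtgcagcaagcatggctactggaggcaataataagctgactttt
WT lineage 1 TRB: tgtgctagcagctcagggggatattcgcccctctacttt

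In EomesTG lineages Tcrg-C2 went with Trgv2 more closely than Tcrg-C4 did, and in the few WT lineages both went with it. In the 23 EomesTG lineages with Trgv2 in at least 50% of cells, Tcrg-C2 was found in 10.0% to 83.3% of cells with a median of 45.5%, while in the 7 with under 10% it was found in 0% to 16.7% with a median of 2.44%. Tcrg-C4 had medians of 40.7% and 41.0% in the same lineages. Across the 32 lineages Pearson's r was 0.82 between the shares of Trgv2 and Tcrg-C2, 0.48 between Trgv2 and Tcrg-C4 and 0.13 between Tcrg-V1 and Tcrg-C4, given as a description of lineages that mostly share 1 library and its depth. Across the 8 WT lineages they were 0.91, 0.97 and 0.83, and the median share of Tcrg-C4 was 39.0% in the 2 lineages with Trgv2 in at least 50% of cells and 0% in the 5 with under 10%. Tcrg-V1, which lies upstream of Tcrg-C4, was found in at least 50% of cells of 5 lineages, and in all 5 of them Trgv2 was found in at least 78.1% of cells. Since Trgv2 and Tcrg-V1 share some windows of 50 bases, part of the reads of one could have been given to the other. Only 73.2% of the windows of Tcrg-V1 were unique to it, and the size of that part was not measured.

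Tcrg-C1 was found mainly in some of the few lineages with transcripts of V segments of its own cassette. EomesTG lineage 27 (12 cells) had Tcrg-V6 in 100% of its cells and Tcrg-C1 in 83.3%, with Trgv2 in 8.33%. EomesTG lineage 5 (60 cells) had Tcrg-V7 in 66.7%, Tcrg-C1 in 38.3% and Trgv2 in 93.3%. WT lineage 2 (48 cells, 97.9% innate-like) had Tcrg-V4 in 54.2%, Tcrg-C1 in 41.7% and Trgv2 in 93.8%. EomesTG lineages 24 (16 cells) and 32 (10 cells), with Tcrg-V7 in 68.8% and 30% of cells, had Tcrg-C1 in 12.5% and 0%. In the 28 EomesTG lineages with each of Tcrg-V4, Tcrg-V5, Tcrg-V6 and Tcrg-V7 in under 30% of cells, Tcrg-C1 was found in 0% to 10.3% of cells. Trdc was at 0 in 29 of the 32 EomesTG and in all 8 WT lineages, and the highest share was 5.0%.

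Lineages of like phenotype differed in their share of cells with Trgv2. Of the 27 EomesTG lineages with at least 80% of their cells in clusters 2, 9, 15 and 16, 22 had Trgv2 in at least 50% of cells and 4 in under 10%. EomesTG lineages 18 and 28 (22 and 12 cells), which were mostly resident-like, had Trgv2 in 0% and Tcrg-C4 in 9.09% and 8.33% of cells. Both WT lineages with Trgv2 in at least 50% of cells were mostly innate-like, at 97.9% and 90.0%. WT lineage 6 (15 cells), of which 93.3% lay in the exhausted-like clusters, had Trgv2 in 6.67% and Tcrg-C4 in 0% of cells.

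**Figure D5:**
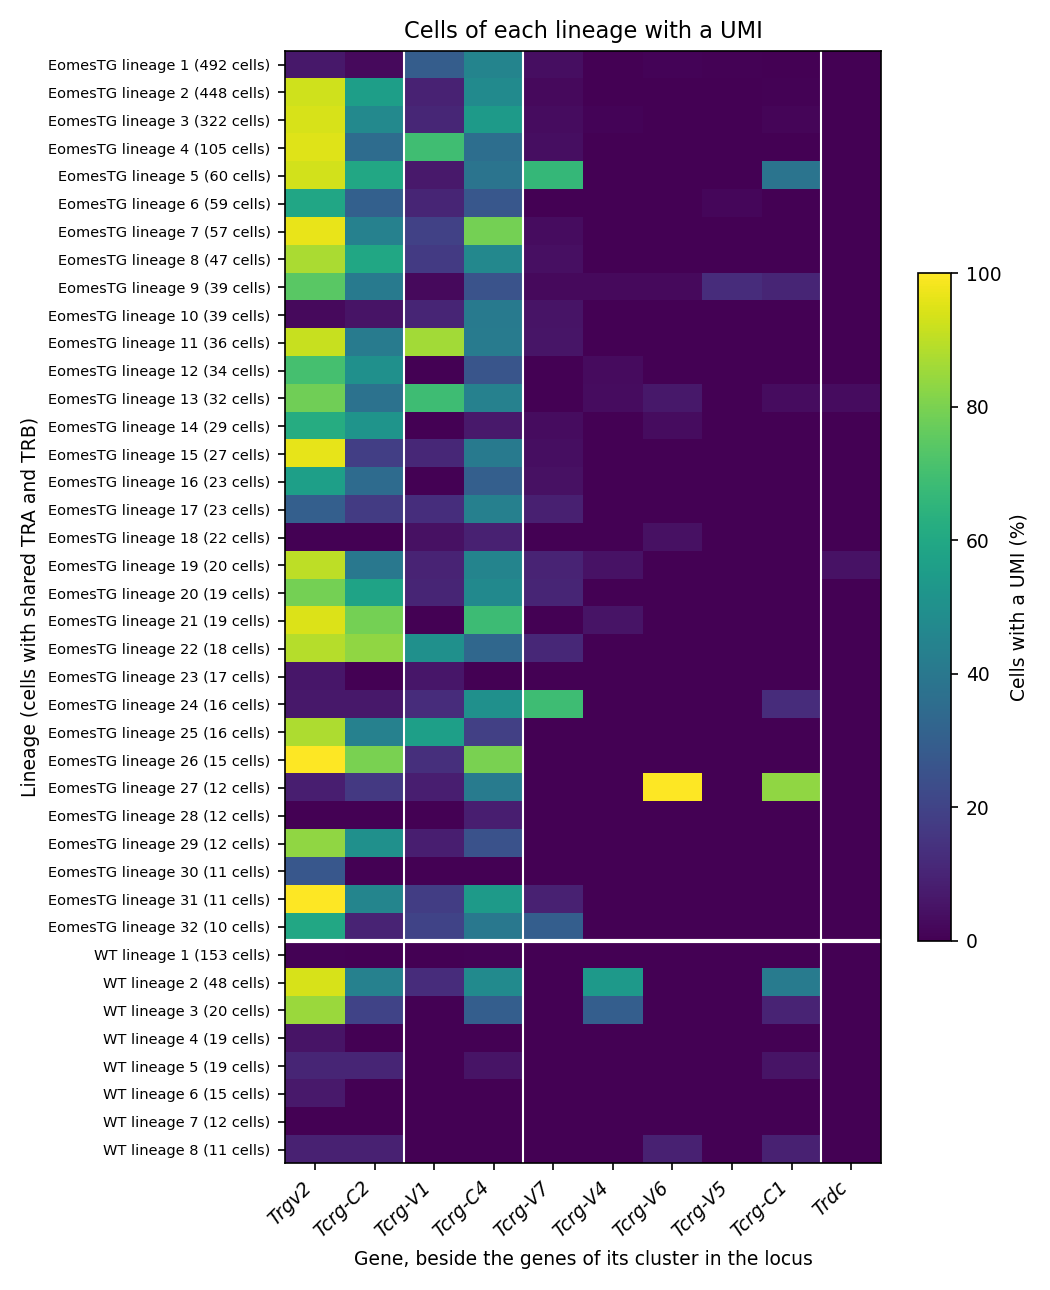
Share of cells with a UMI (colour) for gamma V and C genes and Trdc in each lineage of at least 10 cells, with the EomesTG lineages above the WT lineages and the V genes left of the constant gene of their cassette. Trgv2 is found in at least 50% of cells in 23 of 32 EomesTG lineages and in few in others such as lineage 1 at 6.5%. Tcrg-C1 stands out in lineage 27 at 83.3%.

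Pooled lineages with cells in both organs had more Trgv2 in the liver than in the spleen. In the 31 EomesTG lineages with cells in both organs, Trgv2 had 763 CPM in 427 liver cells and 168 CPM in 74 spleen cells, and was found in 73.8% and 25.7% of them (log2 ratio 2.18, 1.78 to 2.62). EomesTG lineage 3 held 1315 of the 1413 liver UMIs and 40 of the 51 spleen UMIs, and without it the levels were 182 CPM in liver and 43.7 in spleen (2.06, 1.16 to 3.11). Of these cells 83.8% in liver and 25.7% in spleen lay in clusters 2, 9, 15 and 16. In the 64 WT lineages of both organs the levels were 39.1 CPM in 300 liver cells and 14.6 CPM in 135 spleen cells. WT lineage 3, 90% innate-like, held 37 of these 76 liver UMIs and 2 of the 10 spleen UMIs. The WT levels without it were not computed. EomesTG lineage 3, with cells mostly of the exhausted-like class, had Trgv2 in 94.2% of its 308 liver cells and in 92.9% of its 14 spleen cells, shares too near their ceiling to compare. Its level was 1001 CPM in liver and 765 CPM in spleen (0.39, -0.06 to 0.88), and Tcrg-C2 was found in 48.1% and 21.4% of these cells (ratio of levels 1.43, -0.14 to 3.72), neither past the call rule.

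Single cells often held transcripts of both cassettes at once. After thinning to 2000 UMIs, 461 of 3931 EomesTG liver cells held both Trgv2 and Tcrg-C4, where the single shares give 316, and 502 held both Trgv2 and Tcrg-C2, where they give 264. In WT liver 50 of 2933 cells held both Trgv2 and Tcrg-C4, where the single shares give 8.08, and 54 held both Trgv2 and Tcrg-C2, where they give 8.47. Trdc and Trgv2 met in 2 EomesTG liver cells, where the single shares give 5.26, and in 6 WT spleen cells, where they give 0.663. Of the 10 pairs among the 4 gamma members and Tcrg-V1, 5 met more than 1.5 times as often as their single shares give in EomesTG liver and all 10 did in WT liver. Tcrg-C1 and Tcrg-C4 met in 10 EomesTG liver cells, where the shares give 9.52. Cells of 1 phenotype or lineage share both genes of a pair.

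The other rows of the loci showed transcripts of further V segments. Whether these came from rearranged genes was not tested. Tcrg-V1 had 57.0 CPM in EomesTG liver, 5.91 in WT liver, 2.97 in EomesTG spleen and 1.74 in WT spleen. It was called higher in EomesTG than in WT liver (log2 ratio 3.27), where 13.7% of all genes were. So were Tcrg-V7 (13.6 and 0.370 CPM in EomesTG and WT liver, 5.20), Tcrg-V6 (8.62 and 3.06 CPM, 1.49), Tcrg-C3 (6.48 and 0.211 CPM, from 133 and 4 UMIs) and the delta V segment Trdv1 (14.9 and 3.64 CPM, 2.03). The call of Tcrg-V6 rested on EomesTG lineage 27, whose 12 cells held 103 of its 177 UMIs, and without it the levels were 3.61 and 3.06 CPM (0.24, -0.28 to 0.76). Without the lineage that held most of each, Tcrg-V1 (2.97), Tcrg-V7 (4.71), Tcrg-C3 (4.72), Trdv1 (1.53) and Tcrg-V4 (-1.5) were still called. Tcrg-V4 was called lower, at 2.44 CPM in EomesTG liver and 8.82 in WT liver (-1.86), where 6.7% of all genes were. Since Tcrg-C3 shares windows with Tcrg-C1 and Tcrg-C2, its UMIs are uncertain. The delta D and J rows and Trdv3 held no UMI in any library.

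The genes whose pattern was most like each member were named over 31 units of library and phenotype class with at least 50 cells, among 9255 genes. For Trgv2 they were Il2rb, a receptor chain for interleukins 2 and 15 (Pearson's r of log2(CPM + 1) 0.90), Tmem159 (0.90), Pvrig (0.88), Pdcd6ip (0.88) and Nucb1 (0.88). For Tcrg-C4 they were Tmem159 (0.91), Nucb1 (0.89), the ectoenzyme gene Cd38 (0.87), Sept4 (0.86) and Pdcd6ip (0.86). For Tcrg-C2 they were Osgin1 (0.89), Napsa (0.88), Cd7 (0.88), Chn2 (0.87) and Mfsd10 (0.87). Tcrg-C1 was most like Sulf2 (0.89), Mfsd10 (0.86), the adaptor gene Tyrobp (0.85), Cables1 (0.85) and Lyn (0.85). Among the members, Trgv2 and Tcrg-C4 had an r of 0.95, and Tcrg-C2 and Tcrg-C4 of 0.91. Trdc had no close match, with Zfyve16 at 0.69, Ccny and Nlk at 0.66, Pogz at 0.65 and Cerk at 0.64. Units of 1 library share its depth, and large units of EomesTG liver weigh on all these values.

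Genes of the gamma-delta T cell program were mostly lower in EomesTG than in WT liver. Of 20 listed genes 9 had enough UMIs, and 7 of them were called lower and 2 higher than in WT liver, where 6.7% of all genes were called lower and 13.7% higher. Their median log2 ratio was -1.90, where that of all genes was 0.12. Those called lower were Cd163l1 (-3.74), a scavenger receptor gene, 5830411N06Rik (-3.99), Tmem176b (-3.15), Tmem176a (-2.73), Aqp3 (-1.90), Serpinb1a (-1.75) and Zbtb16 (-1.17), which encodes the transcription factor PLZF of innate-like T cells. Maf (1.15) and Etv5 (1.16) were called higher. Without clusters 2, 9, 15 and 16, 6 of 9 measured genes were still called lower and 0 higher, where 3.72% and 2.26% of all genes were. Their median log2 ratio was then -1.44, and none of the gamma members was called higher in that setting. In EomesTG spleen 5 of 7 measured genes were called lower and none higher, where 4.93% and 2.68% of all genes were, with a median of -1.54, where that of all genes was -0.01. A marker list of 9 gamma-delta T cell genes other than Trdc summed to 5.02 CPM in EomesTG liver, with 2 of the genes at 0, against 35.1 CPM in WT liver.

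Of 15 genes for regulators of the loci, 2 were called higher and 5 lower in EomesTG liver, where 13.7% and 6.7% of all genes were, with a median log2 ratio of -0.34. The share called higher is near that of all genes. Il7r, the receptor for interleukin 7 that opens the gamma locus for rearrangement in the thymus, was called lower (-1.12), as were Tcf7 (-1.27), Lef1 (-1.28), Myb (-1.71) and Id3 (-0.79). Id2 (0.88), an inhibitor of E proteins, and Runx3 (0.70), a factor of CD8 T cells, were called higher. Without clusters 2, 9, 15 and 16 none of the 15 was called in either direction, and in spleen none was. Of 12 genes of the alpha-beta receptor complex 9 were measured and 5 were called higher in EomesTG liver, where 13.7% of all genes were, Cd3e at 1.02, Cd3g at 0.97, Trbc2 at 0.81, Trac at 0.75 and Cd8a at 0.61, with a median of 0.61. The recombinase genes Rag1 and Rag2 held no UMI in either liver.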

How the data were processed

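Expression was measured in 4 libraries and receptor chains in 4 more, 8 samples in all. Per the file headers, the deposited matrices hold raw UMI counts per gene and barcode, written by Cell Ranger 3.1.0, and per the submitters' processing notes the build was mm10. The deposited contig tables give the V, D, J and C calls, CDR3 sequences and productive flag of each barcode. Filters that the authors set beyond Cell Ranger's cell calling are not given in the sources used here.

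A barcode was dropped when it had fewer than 500 UMIs or 300 detected genes, or when mitochondrial genes took 10% or more of its UMIs. That removed 48 to 177 barcodes a library, and a further 30 cells of a cluster that was not of T cells were removed. No doublet caller was run, and barcodes with 2 productive TRB chains were left out as an alternative. Cells were clustered without antigen receptor genes (2000 variable genes, 30 principal components, 15 neighbours, Leiden resolution 1.0, 19 clusters) and named from marker lists, so names may differ from the study's. Levels are summed UMIs per 1000000 with exact Poisson intervals, shares have exact Clopper-Pearson intervals and ratios exact conditional binomial intervals, all at 95%. With 1 library per group no p-value was computed, and a ratio compares 2 libraries, not the conditions. A gene was called at 1.5-fold or more with its interval on that side of equality and at least 50 UMIs over both sides. This rule was tested on simulated Poisson counts of whole libraries. The simulation held no cells or clones, so it does not show how the rule behaves where UMIs lie in few cells. Alternatives changed the filters, scaling, clustering, clone weighting and call rule. The genes named are the 5 members, the other rows of both loci, the genes of the stated lists and the 5 genes most correlated with each member (at least 200 UMIs). The members and lists were chosen with earlier results of these data known, and lineages were defined after seeing the data. Gene sequences are from GENCODE vM21 on GRCm38 and CDR3 sequences from the contig tables. Python 3.11.15, numpy 2.4.6, scipy 1.17.1, scanpy 1.11.5 and leidenalg 0.10.2 were used.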

Additional observations from a re-analysis of the deposited data

Results flagged for a closer look

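The ratio of EomesTG over WT had opposite signs in the organs for Trdc and Tcrg-C2. For Trdc it was -0.31 on the log2 scale in liver and 0.45 in spleen, and for Tcrg-C2 it was 2.50 in liver and -0.47 in spleen. The ratio of expanded over single-cell clones for Trgv2 was 4.27 in EomesTG spleen and 1.31 in WT liver, while it was -2.59 in WT spleen. The WT liver value turned to -0.25 without WT lineage 2, and the WT spleen value rests on 1 UMI in expanded clones. Each of these differences between groups rests on 1 library a group and was not tested.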

How the results depend on the processing

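Of the 45 called member ratios, 613 alternative values were computed, of which 58 were no longer past the threshold and 5 changed direction. Of 383 alternative values of ratios that were not called, 33 were past it. Of the changes of direction 3 concern Trdc, which was 0.14 in place of -2.16 for other T cells over naive-like cells of EomesTG liver at Leiden resolution 0.5, -0.81 in place of 0.70 for those of WT spleen with naive cells gated by UMIs, and 0.039 in place of -0.83 for liver over spleen in EomesTG mice without clusters 2, 9, 15 and 16. The others are expanded over single-cell clones of WT liver, where Trgv2 was -0.25 in place of 1.31 and Tcrg-C4 -0.57 in place of 0.67 without the lineage with the most UMIs, and -0.19 and -0.17 without innate-like cells. The 3 members called higher in EomesTG over WT liver were 0 without those clusters. In spleen 1 member was called, and the count was 3 with the mean over cells of counts per 10000 UMIs, 2 with each clone counted once, without shared barcodes, in paired cells only or without those clusters, and 0 at 2-fold, at a minimum of 200 UMIs, or without the cell or the lineage with the most UMIs of the member. That minimum also left Trdc called in 0 of 4 libraries for unpaired over paired cells, since no library holds so many Trdc UMIs, and the UMI gate gave 6 calls in place of 12. The 84 cells with Trdc and no pair were 37 with no contig and 44 at 2 UMIs or more. For the rest the cause was not tested.

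Leaving out clusters, single cells, lineages or innate-like cells, taking naive-like clusters singly and keeping only paired cells were chosen after seeing the data. No paired analysis was possible because each group has 1 library, and there was no replicate to leave out. Few UMIs limit the spleens most, where a member rests on 23 to 336 UMIs a library, and Trdc, with 57 to 140. Over all genes the spleen libraries hold the most UMIs.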

Other observations

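In each library the level of the delta V segment Trdv1 was highest in cells with only a productive beta chain, although paired cells held many of its UMIs. Trdv1 had 45.7 CPM in cells of EomesTG liver with only a beta chain, against 8.76 CPM in its paired cells, and 20.2 against 1.86 CPM in WT liver. In EomesTG liver 90 Trdv1 UMIs lay in the 12 cells of EomesTG lineage 29. The values were 33.0 and 9.64 CPM in EomesTG spleen, and 14.3 and 3.23 CPM in WT spleen. Between the genotypes, Trdv1 had 13.4 CPM in EomesTG spleen and 5.15 CPM in WT spleen (log2 ratio 1.38, 1.10 to 1.66), and Trdv2-2 had 13.2 and 5.91 CPM (1.16). Both were called higher in the spleen, where 2.68% of all genes were and Trdc was not.

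Cluster 18 (27 cells) was led by genes that include Tmem176b, Serpinb1a, Tmem176a, Blk and Zbtb16 and had nearly all its cells in WT mice, with 1 in EomesTG liver, 16 in WT liver and 10 in WT spleen. Tcrg-C1 was found in 50% of its WT liver cells and 40% of its WT spleen cells, at 133 and 121 CPM. Trgv2 was found in 56.25% of its WT liver cells, at 434 CPM. Of those WT liver cells 75% had a productive TRA and TRB pair. Trdc had 2 UMIs, in 1 cell, in each of these WT libraries.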
